A study of Mus musculus with 9 samples.

Results

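The small nucleolar RNAs (snoRNAs) and small Cajal body RNAs (scaRNAs) of embryonic mouse cortex were followed in embryos with a knockout of Sfpq, the gene of a protein that binds RNA in the nucleus. All RefSeq transcripts whose gene symbol starts with Snord, Snora or Scarna were taken, which gave 114 of the 30978 transcripts in the tables, and 76 of them averaged at least 0.5 RPKM across all 9 libraries. RPKM scales a read count to the length of the transcript in kilobases and to 1e6 reads of the library. The 76 comprise 40 of 69 Snord, 29 of 36 Snora and 7 of 9 Scarna RNAs, and 5 of the 114 were listed at 0 in every library. Values of all 9 libraries chose these RNAs, without regard to genotype.

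The libraries came from the cerebral cortex of E13.5 embryos on a C57BL/6+C57BL/6J+CBA background, labelled as neuronal stem cells and neurons. There were 3 embryos each of control, Sfpq heterozygous knockout (Sfpq+/-) and Sfpq homozygous knockout genotype. The sources used here do not give the alleles or transgenes of the controls, the part of Sfpq that is removed or the cells in which it is removed. Ribosomal RNA was removed and RNA with and without a poly(A) tail was read.

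Box C/D snoRNAs (Snord) guide ribose methylation, and box H/ACA snoRNAs (Snora) guide the change of uridine to pseudouridine, mostly in ribosomal RNA. ScaRNAs (Scarna) use the same boxes, stay in Cajal bodies and guide the modification of spliceosomal RNAs. In mammals most of these RNAs lie in introns of a host gene and are cut out of the excised intron, after which core proteins protect them from exonucleases. Many host genes code for ribosomal proteins or other parts of the translation machinery, and some hosts, such as the Snhg genes and Gas5, make no protein.

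The sequences of the RNAs that differed between homozygous and control cortex are shown because they carry the boxes that define the classes. They are GENCODE M21 transcripts of build GRCm38, 5′ to 3′, and were read on the transcript strand. Capitals mark a C box (TGATGA starting within the first 20 bases) and a D box (CTGA ending within the last 20 bases), or the ACA that ends 2 to 4 bases before the 3′ end. Snora81 held no ACA in that window and Snord57 no TGATGA in its own, and both are printed with the letters that were found. Scarna3b also held a CTGA in the D box window, which is left in lower case, with only the ACA marked.
Scarna6: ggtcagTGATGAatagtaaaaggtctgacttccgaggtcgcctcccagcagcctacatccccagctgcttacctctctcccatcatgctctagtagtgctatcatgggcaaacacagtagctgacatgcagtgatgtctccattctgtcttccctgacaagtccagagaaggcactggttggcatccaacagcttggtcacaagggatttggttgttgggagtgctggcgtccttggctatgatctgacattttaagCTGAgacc
Scarna3a: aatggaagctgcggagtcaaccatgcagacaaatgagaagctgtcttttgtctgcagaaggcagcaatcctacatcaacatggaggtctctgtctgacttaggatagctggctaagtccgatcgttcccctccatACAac
Scarna3b: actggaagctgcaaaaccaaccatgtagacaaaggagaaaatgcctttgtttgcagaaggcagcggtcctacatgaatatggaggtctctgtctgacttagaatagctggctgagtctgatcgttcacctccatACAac
Snora23: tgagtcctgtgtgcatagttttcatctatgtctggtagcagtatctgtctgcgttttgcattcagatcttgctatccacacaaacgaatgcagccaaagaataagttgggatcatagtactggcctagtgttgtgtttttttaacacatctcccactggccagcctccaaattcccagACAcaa
Snora81: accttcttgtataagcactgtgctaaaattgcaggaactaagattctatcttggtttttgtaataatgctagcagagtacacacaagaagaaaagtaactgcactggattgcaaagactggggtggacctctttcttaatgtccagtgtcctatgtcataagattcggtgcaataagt
Snord57: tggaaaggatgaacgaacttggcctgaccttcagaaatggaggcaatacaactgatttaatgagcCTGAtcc
Snord116l1 and Snord116l2: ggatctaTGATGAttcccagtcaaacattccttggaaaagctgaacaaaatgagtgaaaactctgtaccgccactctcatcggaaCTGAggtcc

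The letters mostly followed the class names. Of the 40 Snord RNAs at or above 0.5 RPKM, 39 (97.5%) had the D box, 30 (75%) the C box and 3 (7.5%) the ACA. Of the 29 Snora RNAs, 27 (93.1%) had the ACA, 5 (17.2%) the D box and 0 the C box. Of the 7 Scarna RNAs, 3 had a C box and 3 the ACA. The letters TGAG, found in the signal that holds H/ACA scaRNAs in Cajal bodies, stood anywhere in 6 of 7 Scarna RNAs. They also stood in 34 of 40 Snord (85%) and 12 of 29 Snora RNAs, so they do not set Scarna apart from Snord. Snord116l1 and Snord116l2 were identical over 94 bases and had identical values in every library, so they are 1 measurement listed under 2 names. Scarna3a and Scarna3b, which are separate genes in different hosts, matched at 120 of 140 aligned positions (85.7%). The sources used here do not say how reads of near-identical copies were shared, and values of the Snord116 and Scarna3 copies are uncertain for that reason.

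Levels ran over 3 orders of magnitude. Snora74a was the most abundant at 808 RPKM and alone made up 49.6% to 58.4% of the Snora sum in each library. The scaRNA Scarna13 followed at 422 RPKM and made up 77.5% to 79.8% of the Scarna sum. Below them came the H/ACA RNA Snora26 at 198 RPKM, the C/D RNAs Snord55 at 151 RPKM and Snord17 at 122 RPKM, and Snora7a at 114 RPKM. Snord2 at 108, Snord82 at 93.0, Snord15b at 88.9 and Snord15a at 82.4 RPKM completed the 10 highest means. The median was 2.66 RPKM for the Snord RNAs that passed, 7.94 for Snora and 23.2 for Scarna. At the threshold, Scarna17 (0.591 RPKM), Snord49b (0.563) and Snord88c (0.560) were just inside, and Scarna8 (0.491), Snord66 (0.482) and Snora35 (0.470) just outside.

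Level moved with the length of the RefSeq model, although not in each step. Of 20 models under 60 nt, 5 reached 0.5 RPKM, against 26 of 37 from 60 to 80 nt, 13 of 19 from 80 to 110 nt, 23 of 29 from 110 to 140 nt and 9 of 9 of at least 140 nt. Spearman's rho between length and mean RPKM was 0.60 over the 114 RNAs, 0.42 within Snord, 0.42 within Snora and 0.67 within Scarna, as a description of points that share the same libraries. RPKM already divides by length. The RNA was extracted on a column, per the labels' protocols, and the part of extraction or library preparation in the low values of short models was not tested.

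**Figure D1:**
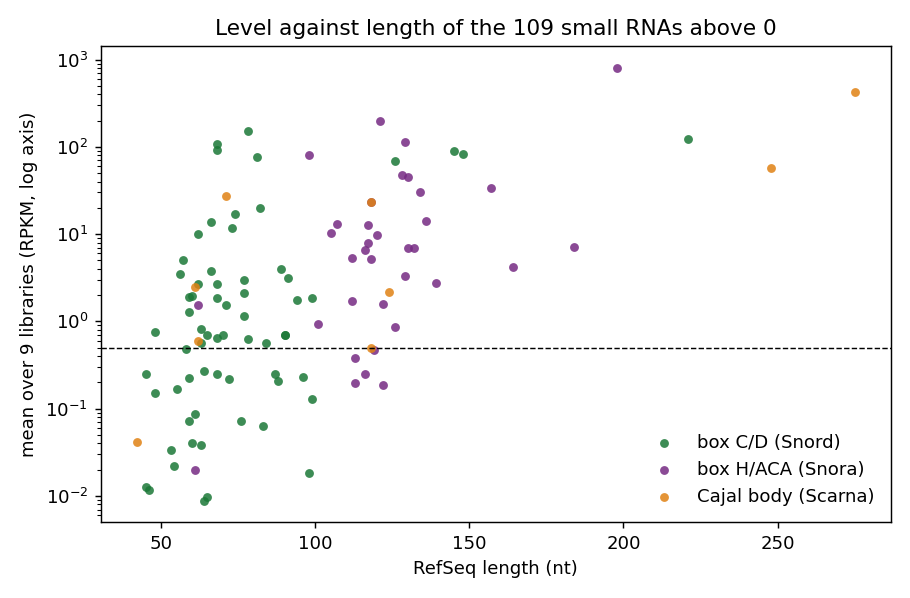
Mean RPKM over 9 libraries (log axis) against RefSeq length in nt, 1 point per RNA, coloured by class; RNAs listed at 0 throughout are left out. The dashed line is the 0.5 RPKM threshold, and the 9 RNAs of at least 140 nt all lie above it.

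For 94 of the 114 RNAs the RefSeq model was shorter than the GENCODE transcript, 13 were equal and 7 longer. Scarna2 had 61 nt against 414, Scarna10 had 71 nt against 325 and Snora61 had 62 nt against 130. With RefSeq lengths, 296 of 314 low values (94.3%) came out within 0.1 of a whole read, against 36.4% to 46.7% per library with GENCODE lengths, and the depths recovered this way were 170 to 206 (in 1e6 reads). The values therefore describe reads inside each RefSeq model. For 33 of the 76 RNAs, some transcripts of the host have an exon over the model and others an intron. Reads of the host inside a model cannot be told apart here from those of the small RNA, and their part was not tested. The 76 RNAs had a median of 112 reads per library, with 32.5 for Snord, 202 for Snora and 354 for Scarna. The median SD of log2 values within a genotype was 0.256 for the 76, against 0.0981 for all 12129 genes tested. The median SE of the homozygous against control change was 0.136 for the 31 RNAs with at least 100 reads in every library and 0.188 for the other 45, against 0.0822 for all genes tested, and the part of depth in this spread was not tested.

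Homozygous and control cortex were compared first, for the effect of losing both copies of Sfpq. In homozygous cortex 7 of the 76 RNAs rose and 1 fell. The 3 scaRNAs Scarna6, Scarna3a and Scarna3b, the H/ACA RNAs Snora23 and Snora81 and the identical C/D RNAs Snord116l1 and Snord116l2 were higher, and Snord57, a C/D RNA, was lower. The changes were at most 0.54 on the log2 scale, and the most abundant RNA, Snora74a, did not pass. The test was limma on log2(RPKM + 0.5) with Benjamini-Hochberg adjustment over all 12129 genes, and RNAs with an adjusted p below 0.05 were called changed. The 8 calls are 10.5% of the 76, where 34.1% of all genes tested were called (14.2% higher and 19.9% lower). The split of all genes depended on scaling: it was 1723 higher and 2411 lower as deposited, 2558 and 2149 after quantile normalization, and 2855 and 1970 after median centring.

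For Scarna6 the control libraries held 56.0, 49.8 and 47.7 RPKM, the heterozygous libraries 62.5, 59.2 and 52.6 RPKM, and the homozygous libraries 68.0, 59.4 and 59.1 RPKM. All homozygous values lay above all control values, and the heterozygous values overlapped both. The means of 51.1 ± 4.33 and 62.2 ± 5.09 RPKM (SD, n = 3 each) gave a log2 change of 0.28 ± 0.08 (SE, limma adjusted p = 0.0217). Scarna6 rests on more reads than the other called RNAs, at least 2036 in every library. The call was lost without control replicate 2 (0.26, adjusted p = 0.0739), control replicate 3 (0.23, 0.0738) or homozygous replicate 1 (0.21, 0.0881).

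Scarna3a was at 22.3, 20.1 and 21.2 RPKM in control, at 19.2, 23.3 and 22.9 in heterozygous and at 30.3, 25.2 and 24.1 RPKM in homozygous cortex. The homozygous libraries were above both other genotypes, and homozygous replicate 1 stood highest. The log2 change was 0.31 ± 0.09 (SE, limma adjusted p = 0.0239). Its relative Scarna3b was at 2.19, 2.31 and 1.22 RPKM in control, at 1.73, 1.77 and 2.08 in heterozygous and at 3.18, 2.86 and 2.43 RPKM in homozygous cortex. Here control replicate 3 stood low, and the homozygous libraries again lay above all others. The log2 change was 0.49 ± 0.17 (SE, limma adjusted p = 0.0404). Scarna3a lost its call without control replicate 2, control replicate 3 or homozygous replicate 1 (adjusted p up to 0.0927), and Scarna3b without control replicate 3 (0.27), heterozygous replicate 1 or 2, or homozygous replicate 1 or 2 (adjusted p up to 0.128). Without the filter on low values, which brings more rows into the adjustment, Scarna6 (limma adjusted p = 0.0533), Scarna3a (0.0588) and Scarna3b (0.101) were not called, and Scarna3b was also not called with only the control and homozygous libraries in the fit (0.0666).

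Snora23 was at 7.66, 5.73 and 5.40 RPKM in control, at 4.30, 7.35 and 6.06 in heterozygous and at 9.60, 8.95 and 8.68 RPKM in homozygous cortex. No homozygous value reached down to the other genotypes, and the mean went from 6.26 ± 1.22 to 9.08 ± 0.473 RPKM (SD, n = 3 each). The log2 change was 0.52 ± 0.16 (SE, limma adjusted p = 0.0307). Snora81 was at 3.87, 4.32 and 3.82 RPKM in control, at 3.21, 3.74 and 3.69 in heterozygous and at 5.06, 4.95 and 4.86 RPKM in homozygous cortex. The 3 genotypes did not overlap for this RNA, with the heterozygous libraries lowest, and the log2 change was 0.28 ± 0.08 (SE, limma adjusted p = 0.0166). Snora23 lost its call without control replicate 2 or 3 or without any of the homozygous replicates (adjusted p up to 0.102) and without the filter (0.0828), and Snora81 without control replicate 1 or homozygous replicate 1 (adjusted p up to 0.0565).

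Both calls among the lowest values rest on few reads. Snord116l1, from an imprinted cluster of brain C/D RNAs that is deleted in Prader-Willi syndrome, was at 0.627, 0.527 and 0.381 RPKM in control, at 0.516, 0.733 and 0.541 in heterozygous and at 0.976, 0.839 and 1.08 RPKM in homozygous cortex. The homozygous libraries lay above the rest, at an estimated 13.4 to 19.1 reads against 5.90 to 9.97 in control, and the log2 change was 0.54 ± 0.11 (SE, limma adjusted p = 0.00361). These estimates were not within 0.1 of a whole read in every library (9.77 in control replicate 2), so they are not exact counts. Snord57, which guides methylation of small-subunit ribosomal RNA, was at 0.989, 0.925 and 1.20 RPKM in control, at 0.987, 0.782 and 0.667 in heterozygous and at 0.654, 0.358 and 0.729 RPKM in homozygous cortex. The homozygous libraries lay below the control libraries, at 4 to 9 reads against 11 to 13, and the log2 change was -0.52 ± 0.14 (SE, limma adjusted p = 0.0140). The Snord116 and Snord57 calls held in each of the 18 alternatives in which these RNAs were tested. Counts this low leave a wide counting error beside the spread between embryos, and the pseudocount sets the size: for Snord57 the log2 change was -0.78 with a pseudocount of 0.1 and -0.37 with 1.

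**Figure D2:**
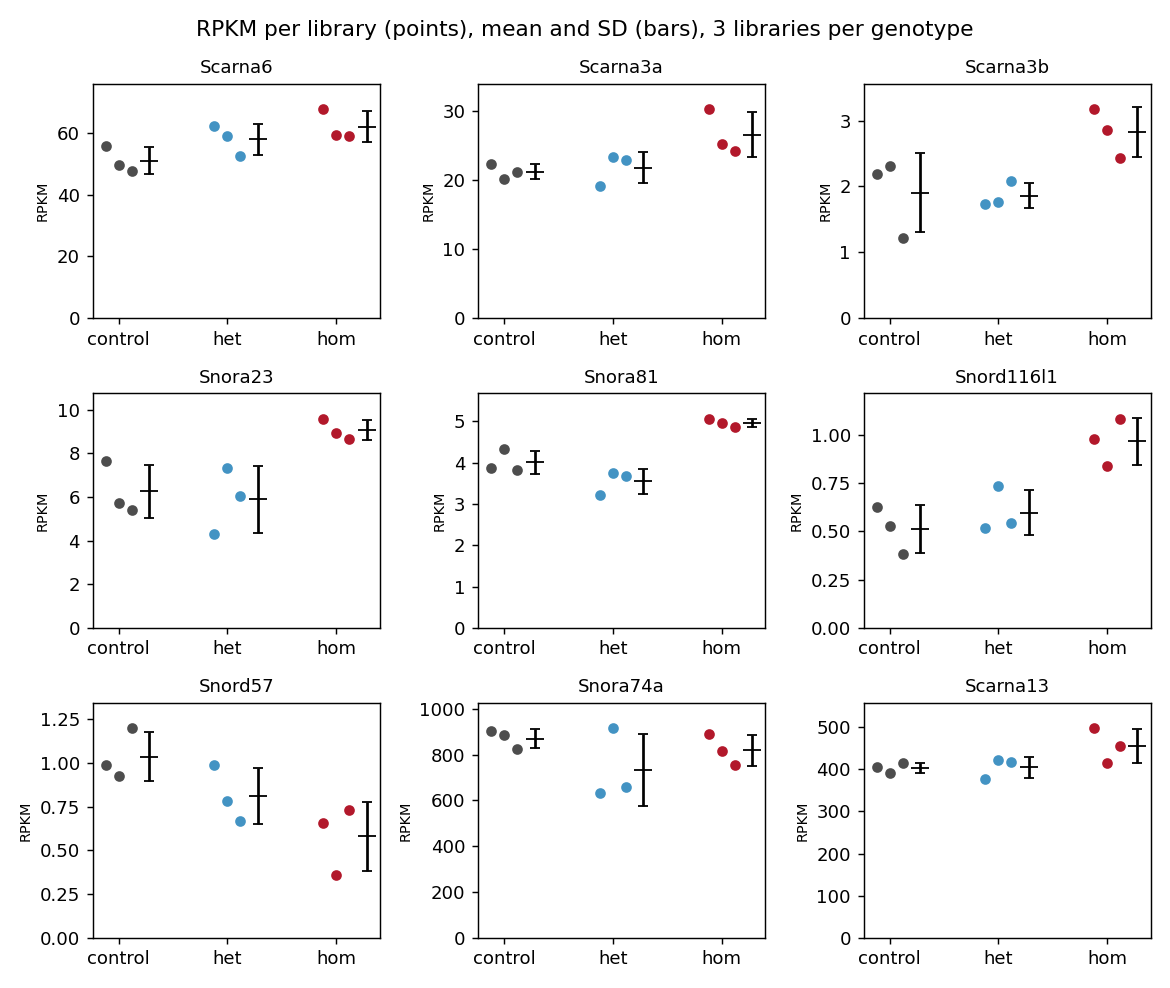
RPKM in each library (points, 3 per genotype: control, heterozygous, homozygous) with mean and SD beside them, for the called RNAs and for the most abundant RNA of the Snora and Scarna classes; each axis starts at 0. Snord116l2 has the same values as Snord116l1. The homozygous points lie above the control points in the 6 called panels that rose and in Scarna13, and below them in Snord57.

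By class, 3 of 40 Snord (7.5%), 2 of 29 Snora (6.90%) and 3 of 7 Scarna RNAs (42.9%) were called, where 34.1% of all genes tested were called. Of the 3 Snord calls, 2 are the identical Snord116l1 and Snord116l2. The 3 Scarna calls include the related Scarna3a and Scarna3b, and all 3 were lost without homozygous replicate 1 or without the filter. The median log2 change was 0.09 for Snord, 0.14 for Snora and 0.28 for Scarna, against -0.01 for all genes tested. The change was above 0 for 23 of 40 Snord, 24 of 29 Snora and 6 of 7 Scarna RNAs. Quartiles ran from -0.07 to 0.24 for Snord and from 0.06 to 0.23 for Snora, and the difference between the classes was not tested. The Snord and Snora sums overlapped between genotypes: in control and homozygous cortex the Snord sum was 911 ± 116 and 947 ± 79.7 RPKM, and the Snora sum 1547 ± 135 and 1573 ± 122 RPKM (SD, n = 3 each). The Scarna sum was 509 ± 16.7 and 577 ± 47.7 RPKM, and these groups did not overlap (highest control library 520, lowest homozygous library 532 RPKM). It is mostly Scarna13, which was at 406, 391 and 415 RPKM in control and at 498, 416 and 455 in homozygous cortex. For Scarna13 the groups nearly touched (415 against 416 RPKM) without overlapping and the log2 change of 0.17 ± 0.07 (SE) did not pass (limma adjusted p = 0.0790). The other Scarna RNAs did not pass either: Scarna10 had a log2 change of -0.09, Scarna2 of 0.04 and Scarna17 of 0.34.

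Groups did not overlap for 15 of the 76 RNAs (14 higher, 1 lower), or 19.7%, where 45.9% of all genes tested had no overlap. Among the 3 largest changes each way of Snord and of Snora, the following RNAs did not pass. Snord4a was at 0.566, 0.416 and 0.581 RPKM in control and at 1.01, 1.37 and 0.510 in homozygous cortex (log2 change 0.48, limma adjusted p = 0.0662), and its groups overlapped. Snora3 had a log2 change of 0.44 and Snora5c of 0.31, and at the other end Snord61 had -0.33, Snord38a -0.25, Snora43 -0.23 and Snora75 -0.12. Snora74a was at 902, 885 and 825 RPKM in control and at 890, 815 and 754 in homozygous cortex, with a 95% interval of the log2 change from -0.36 to 0.18. The 95% interval lay within a 2-fold change either way for 75 of 76 RNAs, all but Snora3, and within 0.5 on the log2 scale for 32. Among the 31 RNAs with at least 100 reads in every library 3 were called, and among the other 45 there were 5. The 5 include the identical Snord116l1 and Snord116l2, and of all genes tested 34.1% were called.

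**Figure D3:**
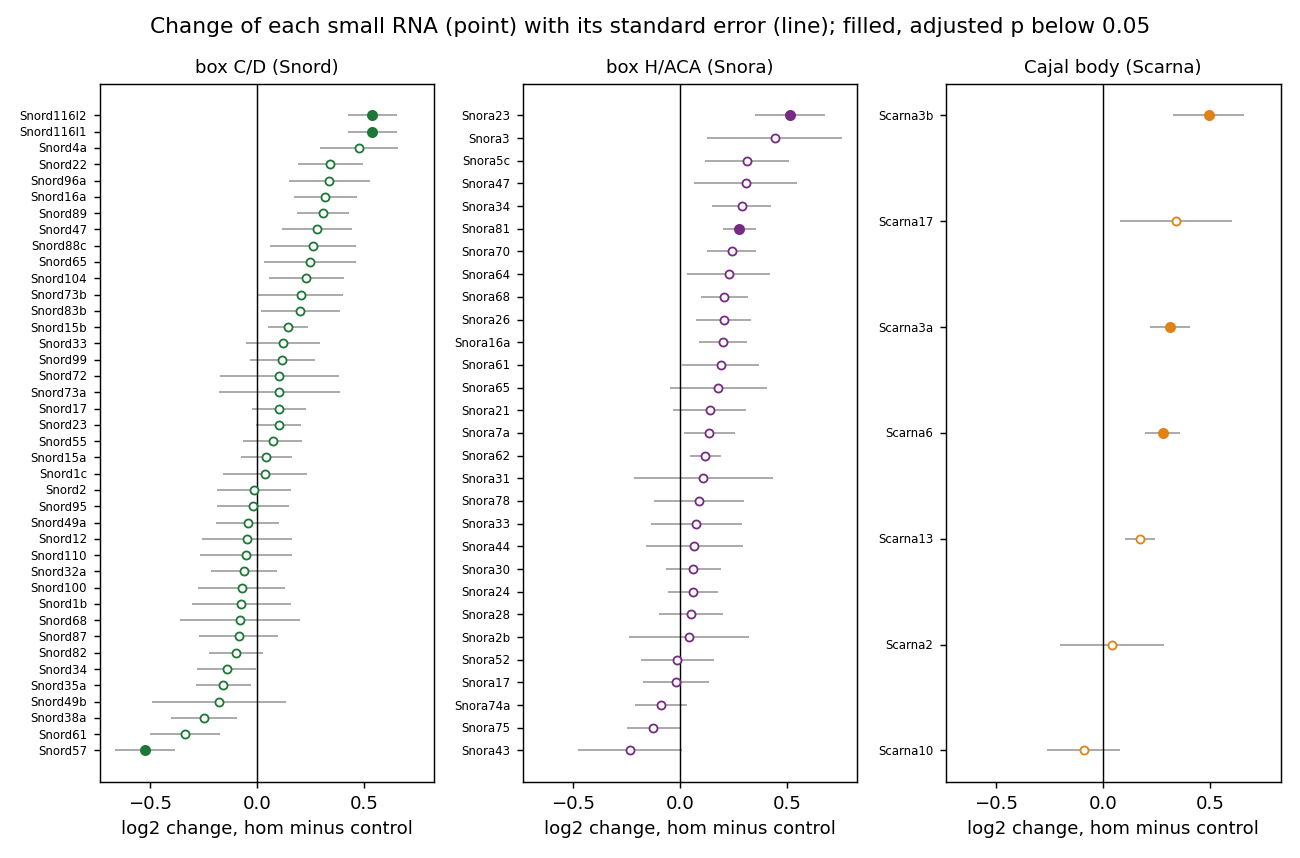
Log2 change between homozygous and control cortex for each of the 76 RNAs (points) with its standard error (lines), in 3 panels by class and sorted by size. Filled points passed the test; they are 3 of 40 Snord, 2 of 29 Snora and 3 of 7 Scarna RNAs, and 53 of the 76 points lie above 0.

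The second comparison asks what loss of 1 Sfpq copy changed, and 0 of the 76 RNAs were called by limma, where 0% of all genes tested were called. At an unadjusted limma p below 0.05 there were 5 of 76 RNAs, where 5.71% of all genes tested passed that level. They were Snora75 (log2 change -0.42, adjusted p = 0.646), Snord1c (-0.56, 0.745), Snord38a (-0.43, 0.761), Snord61 (-0.38, 0.842) and Scarna6 (0.18, 0.866). Groups did not overlap for 3 RNAs, Snora81, Snord38a and Snord1c, all lower in heterozygous cortex (3.95% of the 76, against 11% of all genes tested). The median log2 change was -0.05, against -0.01 for all genes tested.

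The third comparison sets homozygous against heterozygous cortex and shares the homozygous libraries with the first. Here 9 of 76 RNAs rose and 0 fell, or 11.8% called, where 32.5% of all genes tested were called (14.4% higher and 18.2% lower). At an unadjusted limma p below 0.05 there were 17 of 76 (42.3% of all genes tested). Of the 9, 6 had also been called against control, which is 75% of the first list and 66.7% of the second: Snora81, Snora23, Scarna3a, Scarna3b, Snord116l1 and Snord116l2. Snora81 had the smallest adjusted p (log2 change 0.43 ± 0.08 SE, limma adjusted p = 0.00134) and was called in all 19 alternatives. Scarna3a had a log2 change of 0.28 ± 0.09 (SE, limma adjusted p = 0.0420) and lost its call in 10 of 19 alternatives, leaving out either control replicate 2 or 3 among them. Scarna3b (0.49, 0.0422) lost its call in 6, including without each heterozygous replicate in turn. Snord116l1 and Snord116l2 (0.42, 0.0152) lost theirs without heterozygous replicate 1 or 3 or homozygous replicate 3 (adjusted p up to 0.0585), and Snora23 (0.61, 0.0150) without homozygous replicate 1 (0.0509). Scarna6 and Snord57 were not called here, with log2 changes of 0.10 ± 0.08 and -0.29 ± 0.14 (SE).

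The RNAs called only against heterozygous cortex were Snora62, Snord83b and Snord1c. Snora62, in the ribosomal protein gene Rpsa, was at 36.1, 43.7 and 43.2 RPKM in heterozygous and at 51.8, 48.2 and 46.9 in homozygous cortex (log2 change 0.26 ± 0.07 SE, limma adjusted p = 0.0206), and heterozygous replicate 1 stood low. Snord83b, in Rpl3, was at 0.954, 2.06 and 1.77 RPKM in heterozygous and at 2.98, 2.49 and 2.19 in homozygous cortex (0.57 ± 0.18 SE, 0.0341). Snord1c, in Snhg16, was at 0.580, 0.0702 and 0.472 RPKM in heterozygous and at 0.906, 0.6504 and 0.785 in homozygous cortex (0.60 ± 0.20 SE, 0.0366), and the middle heterozygous value is 1 read. Without heterozygous replicate 2 the log2 change of Snord1c was 0.32 and it was not called. Without heterozygous replicate 1 the values were 0.17 for Snora62 and 0.33 for Snord83b, and neither was called. Without homozygous replicate 1 none of the 3 was called, and Snord1c was also lost without homozygous replicate 3 and Snord83b without homozygous replicate 2. By Xist and Y-linked transcripts, all heterozygous embryos, 1 control and 2 homozygous embryos were male, and homozygous replicate 1 was female. With sex in the model 6 RNAs were called higher against heterozygous cortex in place of 9, and Snord83b (limma adjusted p = 0.0519), Snord1c (0.0590) and Scarna3a (0.0814) were not called. The difference between the heterozygous and control comparisons was not tested for these RNAs.

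The snoRNA values of a library moved together. Against its own mean over the 9 libraries, the median RNA stood at 0.16 (log2) in control replicate 1 and at -0.07 and -0.12 in control replicates 2 and 3. It stood at -0.24, 0.02 and 0.05 in the heterozygous and at 0.22, 0.06 and 0.03 in the homozygous replicates 1 to 3. Control replicate 1 was the highest control for 55 of 76 RNAs and heterozygous replicate 1 the lowest of its group for 50. The median over all genes tested stayed between -0.04 and 0.07 in the same libraries. Without homozygous replicate 1 there were 2 RNAs called higher against control in place of 7, the identical Snord116l1 and Snord116l2, which are 1 measurement. Without control replicate 3 there were 3, these and Snora81, and without control replicate 1 there were 12. In the third comparison 3 were called higher without heterozygous replicate 1 and 4 without homozygous replicate 1, in place of 9. The part of these library shifts in the calls was not tested.

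**Figure D4:**
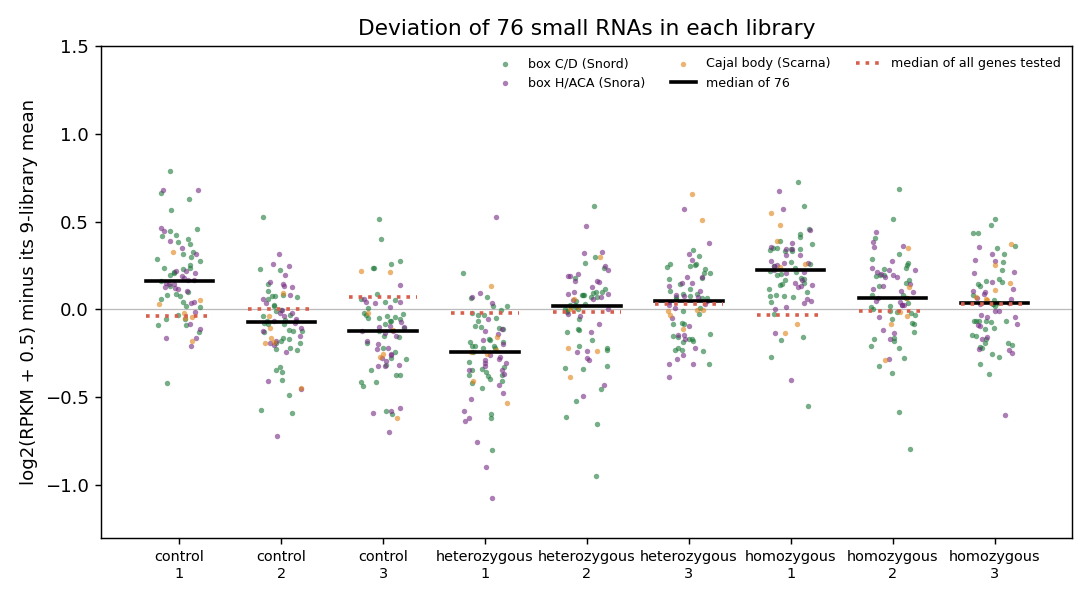
Deviation of each of the 76 RNAs in each library from its mean over the 9 libraries (log2 scale, points coloured by class), with the median of the 76 (black line) and the median of all genes tested (dotted red line). The black lines run from -0.24 in heterozygous replicate 1 to 0.22 in homozygous replicate 1, and the dotted lines stay between -0.04 and 0.07.

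Host genes were taken as the gene on the same strand that holds the RNA, and 67 of the 76 RNAs had a host that was itself tested, over 48 hosts. Of the hosts 18 (37.5%) were called in homozygous against control cortex, 15 higher (31.25%) and 3 lower. Of all genes tested 34.1% were called, 14.2% higher and 19.9% lower. The 19 RNAs in hosts that rose had a median log2 change of 0.10, and 2 of them rose: Snora81 in Eif4a2 and Scarna3a in Cop1. The 5 RNAs in hosts that fell had a median of -0.02 and 0 calls. The 43 RNAs in hosts that were not called had a median of 0.12 and 4 calls. RNA and host lay on the same side of 0 for 46 of 67. Of all 76 RNAs 53 were above 0, and of the 48 hosts 36, so many pairs share a side whether or not they are related. Across RNAs the changes had a Spearman's rho of 0.12 and a Pearson's r of 0.23. These points share libraries and, in part, hosts.

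Among the hosts of the called RNAs, Eif4a2, a translation initiation helicase, rose from 100.2 ± 7.32 to 136 ± 18.3 RPKM (SD, n = 3 each, log2 change 0.43, limma adjusted p = 0.00276), and the ubiquitin ligase gene Cop1 rose by 0.13 (0.0465). The autophagy gene Atg16l1, host of Scarna6, had a log2 change of -0.05, the import receptor gene Ipo7, host of Snora23, of 0.06, and Dcaf5, host of Scarna3b, of 0.04. Nop56, host of Snord57 and itself a core protein of box C/D particles, had -0.12 (limma adjusted p = 0.165). None of these last 4 hosts was called. Snord116l1 and Snord116l2 lie within Snhg14, whose longest transcript in the tables had a mean of 0.108 RPKM and was not tested. Another Snhg14 transcript was at 16.8, 15.9 and 16.6 RPKM in control and at 13.6, 13.1 and 13.2 in homozygous cortex, below control in all 3, while the Snord116 values lay above control. The difference between an RNA and its host was not tested.

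**Figure D5:**
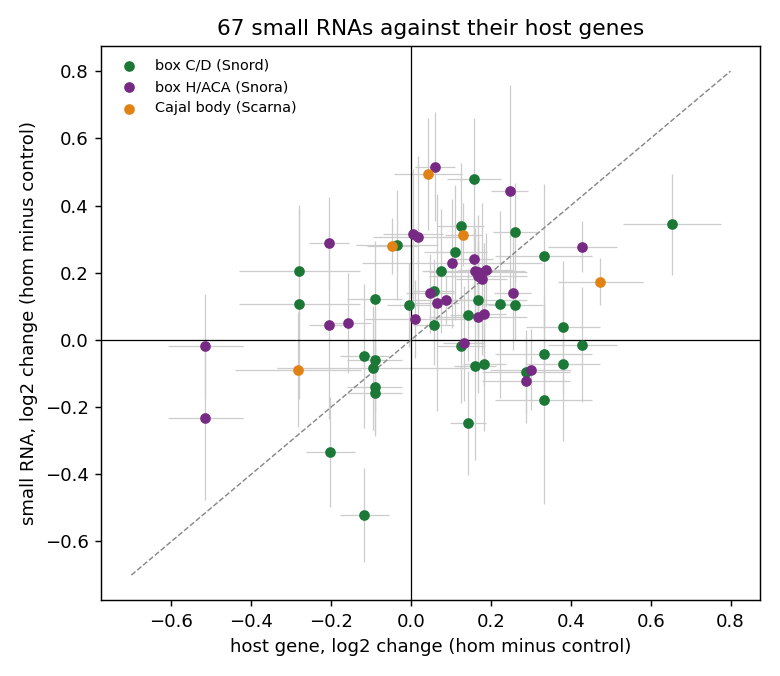
Log2 change between homozygous and control cortex of 67 small RNAs (y axis) against that of their host gene (x axis), 1 point per RNA with both standard errors, coloured by class; the dashed line marks equal change. The points spread around the crossing of the axes, with 46 of 67 on the same side of 0 as their host. Of all 76 RNAs 53 had a change above 0, and of the 48 hosts 36.

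Several non-coding hosts changed while their RNAs did not pass. Snhg1 rose from 24.8 ± 1.19 to 39.97 ± 9.14 RPKM (SD, n = 3 each, log2 change 0.65, limma adjusted p = 0.00184), and its C/D RNA Snord22 was at 79.4, 57.2 and 51.9 RPKM in control and at 79.97, 82.1 and 73.9 in homozygous cortex (0.34, 0.103). The Snord22 groups overlapped through control replicate 1. Snhg10 rose by 0.47 with Scarna13 at 0.17, Snhg16 rose by 0.38 with Snord1b at -0.07 and Snord1c at 0.04, and Snhg4 rose by 0.30 with Snora74a at -0.09. Snhg7 fell by 0.51 on the log2 scale, with Snora17 at -0.02 and Snora43 at -0.23. None of these RNAs was called against control.

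By kind of host, 0 of 26 RNAs in ribosomal protein genes were called, and 8 of the 19 such hosts rose. The median log2 change was 0.12 for these RNAs and 0.16 for these hosts. Their median SE was 0.17 and 0.05, so a change of the same size passes less easily for the RNAs. The hosts that rose include Rpl4, which rose by 0.26 with Snord16a at 0.32, Rpl23, which rose by 0.25 with Snora21 at 0.14, and Rpl27a, which rose by 0.25 with Snora3 at 0.44. Of 21 RNAs in non-coding hosts 2 were called and of 23 in other coding genes 6. The 2 in non-coding hosts were the identical Snord116l1 and Snord116l2. The median log2 changes were 0.12 for RNAs in ribosomal protein genes, 0.09 in non-coding hosts and 0.10 in other coding genes. The share called among all genes tested was 34.1%, with 14.2% higher and 19.9% lower.

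Levels of RNAs and hosts were only loosely related. Of the RNAs, 11 of 67 were above their host in RPKM, and Spearman's rho between the levels was 0.08. RNAs of 1 host differed widely. In Rpl13a, at 953 RPKM, Snord32a was at 77.0, Snord33 at 20.2, Snord34 at 13.6 and Snord35a at 3.95 RPKM, a 19.5-fold range. In Eif4a2 Snord2 stood 25.98-fold above Snora81, and in Rps3 the related Snord15a and Snord15b were within 1.08-fold. In Snhg12 the range over Snora16a, Snora44, Snord99 and Snora61 was 9.20-fold, and in 2410006H16Rik over Snord49a, Snord65 and Snord49b it was 17.97-fold. In Eif4a2, Snord2 had a log2 change of -0.01 beside 0.28 for Snora81 and 0.43 for the host.

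The proteins that bind, build and trim these RNAs were read from 7 lists, whose counts stand beside 14.2% of all genes tested called higher and 19.9% called lower. Of 4 tested core proteins of box C/D particles 1 rose and 0 fell. Nop58 rose from 133 ± 5.72 to 155 ± 1.22 RPKM (SD, n = 3 each, log2 change 0.21, limma adjusted p = 0.00569), and the methyltransferase Fbl was at 33.5 and 36.7 RPKM (0.13, 0.0748). Of 4 core proteins of box H/ACA particles 0 were called: the pseudouridine synthase Dkc1 was at 21.4 and 22.2 RPKM and Nhp2 at 66.4 and 74.6 RPKM (0.17, 0.0523). Of 9 assembly factors 2 rose, the ATPase Ruvbl1 by 0.38 and Rpap3 by 0.34, and 3 fell, Shq1 by 0.38, Znhit3 by 0.24 and Pih1d1 by 0.15. Shq1 is the chaperone that binds Dkc1 before H/ACA assembly.

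Of 10 Cajal body and cap proteins 2 rose, Larp7 by 0.37 and Smn1 by 0.26, and 0 fell. Coil, the scaffold of Cajal bodies, had a log2 change of -0.06 (limma adjusted p = 0.584). Of 14 genes for trimming and turnover 1 rose, the exosome nuclease Dis3 by 0.47, and 2 fell, Zcchc7, an adaptor of the nuclear exosome, by 0.80 and the deadenylase Parn, which trims H/ACA RNAs, by 0.31. Of 8 genes of nonsense-mediated decay, which destroys many spliced host transcripts, 2 rose, Upf3b by 0.45 and Upf2 by 0.31, and 1 fell, Smg6 by 0.62. Of 18 non-coding host genes 7 rose and 2 fell, with Gas5 at 78.0 and 76.3 RPKM. Rian, which carries a large imprinted cluster of C/D RNAs in the Dlk1-Meg3 locus, rose from 28.4 ± 4.41 to 71.4 ± 11.2 RPKM (SD, n = 3 each, log2 change 1.31). The 1 Meg3 transcript tested, of the same locus, rose by 0.78, from means of 0.733 to 1.63 RPKM. Snhg18 fell by 0.63. The list medians were 0.06, 0.05, 0.06, 0.06, -0.04, -0.08 and 0.20 in the order given, against -0.01 for all genes tested.

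Sfpq checks the labels. Its mean was 185 ± 16.8 RPKM in the controls, and the heterozygous embryos had 168, 149 and 151 RPKM, a mean of 156 ± 10.6 or 84.2% of control, with a highest value that overlapped the lowest control value of 168 (log2 change -0.25, limma adjusted p = 0.658). The homozygous embryos had 24.96 ± 1.06 RPKM (SD, n = 3 each), or 13.48% of control, and homozygous against control embryos gave, by an exact permutation test (two-sided), p = 0.1, the smallest possible for 3 against 3. Markers of radial glia, intermediate progenitors and cortical neurons were present, and no marker was at 0 in all libraries. The summed level of 7 radial glia markers was 1861 to 2028 RPKM in control and 1758 to 1847 in homozygous cortex (1 rose and 1 fell), and that of 6 cortical neuron markers 564 to 655 and 459.5 to 554 RPKM (2 rose and 2 fell), both without overlap. The summed level of 5 microglia markers was 10.3 to 11.4 RPKM in control and 13.48 to 18.7 in homozygous cortex (3 of 5 rose). That of 4 intermediate progenitor markers was 110 to 129 and 64.5 to 66.4 RPKM (3 of 4 fell), and that of 5 erythroid markers 478 to 578 and 402 to 443 RPKM (2 of 5 fell). Their part in the changes of the small RNAs was not tested, and in bulk tissue fewer cells of a type and less RNA per cell cannot be told apart.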

How the data were processed

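Cortical total RNA was depleted of ribosomal RNA with Ribo-Zero and made into strand-keeping libraries for a HiSeq2000, per the labels' protocols. Reads were handled with CASAVA 1.8.2 and TopHat 1.4.1 on build mm9, per the submitters' processing notes. The authors deposited RPKM values for 30978 RefSeq transcripts per library, per the file headers. The sources used here do not give their counting program, annotation version, use of strand or treatment of multi-mapping reads.

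Transcripts were named from a RefSeq gene table (30507) and GENCODE M21 (178), and 293 stayed unnamed. Hosts and sequences come from GENCODE M21, with the RefSeq table where GENCODE gave no host with a row. Both are on GRCm38, so no coordinates are given. Each gene had 1 row (coding before non-coding, then largest span, longest exonic length and higher mean), and every Snord, Snora and Scarna transcript was kept.

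The 12129 rows with a mean of at least 0.5 RPKM were fitted with limma 3.58.1 in R 4.3.3, by genotype over all 9 libraries, on log2(RPKM + 0.5), with an empirical Bayes trend and Benjamini-Hochberg adjustment at 0.05. Fold changes are on that log scale, which understates low RNAs. Whole-read steps of low values, with RefSeq lengths, gave depths of 170 to 206 (in 1e6 reads); these depths are approximate, so the reads were not tested as counts. Replicates are embryos. The test was tested on simulated data. The RNAs and the gene lists were chosen with earlier results of these data known, so no p-value is given for a list. Named RNAs are the 10 with the highest means, all Scarna RNAs, those called against control, up to 6 called each way in the other comparisons, and the 3 largest changes each way of Snord and Snora, with their hosts, hosts of at least 3 of the RNAs, and up to 4 genes per list with the smallest adjusted p beside Fbl, Dkc1, Coil and Gas5; others were chosen after their values were seen.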

Additional observations from a re-analysis of the deposited data

How the results depend on the processing

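The count of RNAs higher in homozygous than in control cortex, 7, was 3 without the filter on low values (Snora81, Snord116l1 and Snord116l2). It was 11 after quantile normalization and after median centring on coding genes. Leaving out 1 library gave 2 to 12, and the 2 were the identical Snord116l1 and Snord116l2. The count lower, 1, was 0 with a filter of at least 2 RPKM, which removes Snord57 from the test, and 1 to 3 leaving out 1 library (3 without control replicate 2). Against heterozygous cortex the count higher, 9, was 5 without the filter and 14 after median centring, and 3 to 13 leaving out 1 library, with 0 lower in each setting run. In heterozygous against control cortex the counts were 0 in each setting run. The median log2 change of Snord RNAs, 0.09, lay between 0.00277 and 0.15 leaving out 1 library, with 0.00277 without control replicate 3. That of Snora RNAs, 0.14, lay between 0.0836 and 0.26, with 0.26 without control replicate 1, and that of Scarna RNAs between 0.17 and 0.35. No called result reversed its direction; Snord1c, not called against control at 0.04, was at -0.0361 without control replicate 2 and at -0.0323 without homozygous replicate 1. Quantile normalization moved the median of all genes from -0.01 to 0.03 and median centring to 0.05. Where a cause is not named here it was not tested.

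The labels do not say that embryos with the same replicate number share anything. Over all genes, 2 of 9 same-number pairs had deviations correlated above 0.1 (range -0.05 to 0.40), and the best match of a library in another group had its own number in 6 of 18 cases. Over the 76 RNAs, 7 of 9 same-number pairs were above 0.1 (range -0.03 to 0.31), no other pair was above 0.0769, and the best match had the same number in 15 of 18 cases, which is a hint from the data and not from the design. With the replicate number as a block, the counts against control were 7 higher and 1 lower, and those against heterozygous cortex 10 higher and 0 lower; the medians did not move, Sfpq stayed at -2.86, and of the calls of named RNAs only that of Scarna3a against heterozygous cortex was lost. Of the 76 RNAs, 45 had under 100 reads in some library.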

Other observations

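Other short nuclear RNAs outside the Snord, Snora and Scarna names were read after their values were seen. Terc, the telomerase RNA, carries an H/ACA domain and binds the same core proteins as the Snora RNAs. It was at 10.3, 8.87 and 8.05 RPKM in control, at 7.08, 7.41 and 7.53 in heterozygous and at 10.2, 8.21 and 8.83 in homozygous cortex, with a log2 change of 0.00 ± 0.10 (SE) between homozygous and control cortex (limma adjusted p = 0.993). Against heterozygous cortex it was higher by 0.28 on the log2 scale (limma adjusted p = 0.0415).

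Rmrp, the RNA of a ribonuclease that cuts ribosomal RNA precursors, was far above every snoRNA, with 21505 ± 2021 RPKM in the controls and 23460 ± 2560 RPKM in the homozygous embryos (SD, n = 3 per genotype, log2 change 0.12, limma adjusted p = 0.441). Rpph1, the RNA of ribonuclease P, was at 5238 ± 857 and 4770.4 ± 806 RPKM (-0.13, 0.616). Of the minor spliceosome RNAs, Rnu12 was at 185, 159 and 136 RPKM in control and at 222, 211 and 210.2 in homozygous cortex (0.43, 0.0758), and Rnu11 at 9.80, 9.26 and 6.88 RPKM in control and at 12.4, 9.86 and 11.8 in homozygous cortex (0.38, 0.114). Neither passed against control, although their groups did not overlap. Against heterozygous cortex both rose, Rnu12 by 0.51 (limma adjusted p = 0.0404) and Rnu11 by 0.65 (0.0142). Heterozygous replicate 1 was the lowest library for both.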
